A study of Mus musculus with 4 samples.

Results

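The Notch pathway was followed through 35 mouse genes, taken by symbol from the 31053 gene identifiers of the count tables. They comprise 4 receptors, 5 ligands, 4 enzymes that place sugars on the receptors, 6 proteases or protease subunits, 4 members of the nuclear transcription complex, 8 target genes or HES and HEY relatives, and 4 modulators. All 35 were present in both tables.

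Notch signaling passes between touching cells. A Delta-like (DLL) or Jagged (JAG) ligand on a cell binds a Notch receptor on its neighbor, an ADAM protease and then the gamma-secretase complex cut the receptor, and the freed intracellular domain joins the DNA-binding protein RBPJ and a Mastermind-like (MAML) coactivator on target genes such as *Hes1*. In the intestinal crypt, active Notch maintains stem cells and favors the absorptive lineage, and HES1 represses *Atoh1*. Cells that escape Notch express *Atoh1* and DLL ligands and become secretory: Paneth, goblet or enteroendocrine cells, of which enteroendocrine cells pass through a *Neurog3* stage.

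Counts of 3′ ends of transcripts came from 2 data sets. In the first, Ret-EGFP+ and non-EGFP crypt cells were sorted from the small intestine of 3 adult male RetEGFP/+ mice, so that cells of both groups carried 1 *Ret* allele replaced by EGFP, and 5 libraries of 1000 cells were made of each. The labels give the genotype as WT, and the mouse behind each library is not given, so libraries of the same mouse entered the tests as separate replicates and p values may be too small. In the second, organoids grown from crypts of wild-type C57BL/6J mice in medium with EGF, Noggin and R-spondin 1 were kept for 4 days with GDNF and its co-receptor GFRA1 at 500 ng/mL each, or without them (control). This was done in 3 experiments, each from the crypts of 1 adult mouse, with 2 libraries per treatment, giving 6 GDNF and 6 control libraries. The 2 libraries of a treatment within an experiment entered the test as separate replicates of the same mouse. The organoid p values may thus also be too small for the spread between mice. Organoids hold epithelium alone, without the mesenchyme of the crypt.

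Total counts were 1185426 to 3222485 per Ret-EGFP+ and 1113006 to 4717549 per non-EGFP library, and 1042028 to 2010359 per GDNF and 1106882 to 1983259 per control library. Levels are given as CPM, counts per 1000000 counts of the library after TMM scaling. *Ret* was at 15.3 to 49.0 CPM in Ret-EGFP+ and at 0 to 2.27 CPM in non-EGFP libraries. All 10 enteroendocrine markers examined passed the test below as higher in Ret-EGFP+ cells, with a summed level of 20804 to 28430 CPM in Ret-EGFP+ against 1065 to 3529 CPM in non-EGFP libraries. Organoids of experiment 1 were described as female, but their 4 libraries held 19 to 57 counts of the Y-linked *Ddx3y* and 0 to 2 of *Xist*, whereas the female experiment 2 had 280 to 531 counts of *Xist* and 0 of *Ddx3y*. Values without experiment 1 are therefore given beside *Hes1*. The sorted cells were described as male, and their 10 libraries held 42 to 148 counts of *Ddx3y*. *Xist* had 18 counts in Ret-EGFP+ library 5 and 9 in non-EGFP library 5, against 0 to 2 in the other sorted libraries. The numbers of libraries, and for many members few counts, limited the precision of what follows.

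Ret-EGFP+ cells had far less *Hes1* and *Notch2* than non-EGFP cells, and less *Jag1*, *Nrarp* and *Adam10*, whereas *Maml3*, *Dll4*, *Psen2*, *Ncstn*, *Mfng* and *Jag2* were higher. Of the 35 genes, 28 had enough counts to be tested (5 or more in total, with a mean of 1 or more after normalization). With edgeR's quasi-likelihood test, 11 of these were called at the study's cut-off, an adjusted p below 0.1, of which 6 were higher and 5 lower. This was 39.3% of those tested, and over all 13672 genes 42.9% passed, 21.5% higher and 21.4% lower, so the share was close to the background of this comparison. The libraries of the groups did not overlap for 7 of the 28 genes, against 23.1% of all genes. The median log2 fold change was 0.23 over the 28 genes and 0.10 over all. Scaling by total counts alone in place of TMM raised the median of all genes by 0.55, and 8 members were then higher and 4 lower, *Hes6* and *Psenen* having been gained and *Nrarp* lost. *Notch3*, *Hes5*, *Hey1* and *Hey2* had 0 counts in all 10 libraries, which allows a level of up to 0.253 CPM over the Ret-EGFP+ and 0.229 CPM over the non-EGFP libraries, by counting error alone. *Dll3* (0 counts in Ret-EGFP+, 10 in non-EGFP), *Heyl* (0 and 1) and *Numbl* (4 and 0) had too few counts to be tested. In these bulk libraries fewer cells of a type and less RNA per cell cannot be told apart.

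**Figure D1:**
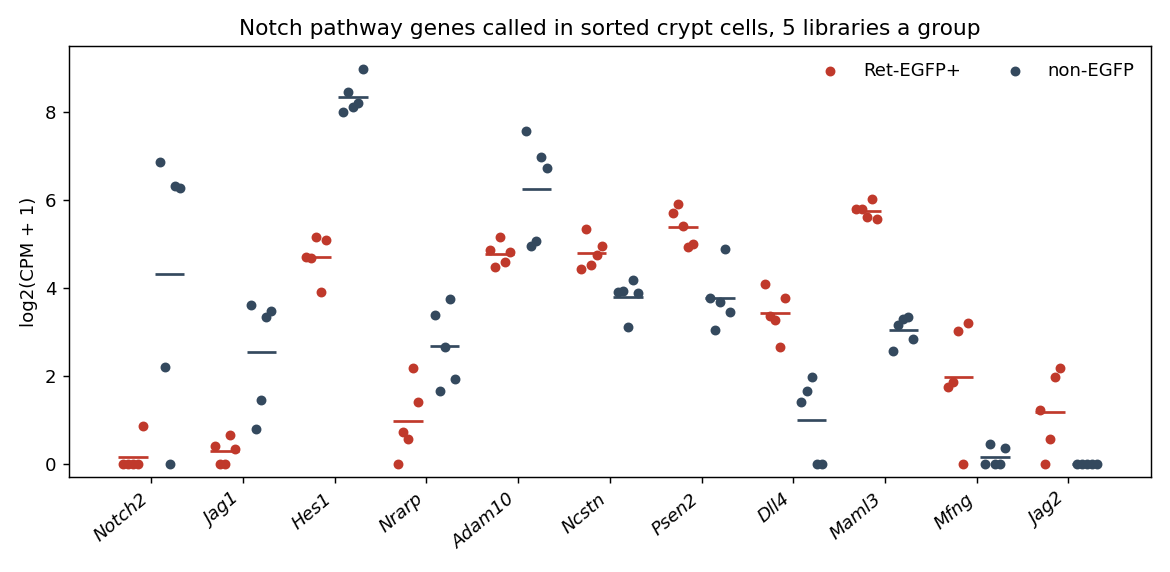
Levels of the 11 Notch pathway genes that passed the test in sorted cells, as log2(CPM + 1) in each library. Points are libraries (5 Ret-EGFP+ in red on the left of each gene, 5 non-EGFP in dark blue on the right), lines are means, and genes run from the most negative to the most positive log2 fold change. *Hes1* and *Maml3* show separate groups with little spread, whereas *Notch2* and *Adam10* are spread widely among non-EGFP libraries.

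Among the receptors, *Notch2* (chr3:98013527-98150361 of GRCm38, + strand) carried the largest fitted difference but not in every library. It had 0, 0, 0, 0 and 3 counts in Ret-EGFP+ libraries 1 to 5, against 488, 10, 0, 69 and 269 in non-EGFP libraries 1 to 5. In non-EGFP libraries this corresponds to 115, 3.64, 0, 78.5 and 76.1 CPM. Non-EGFP libraries 1, 4 and 5 were thus high while libraries 2 and 3 lay at or near 0, and the groups overlapped. The ratio of non-EGFP over Ret-EGFP+ was 252 (exact 95% counting interval 86.1 to 1226), and the adjusted p was 0.00945. That interval uses summed counts and leaves out the spread between libraries. The fitted log2 fold change was -7.55, with a wider approximate 95% interval of -10.9 to -4.17. All 3 Ret-EGFP+ counts came from library 5, and without it the fitted log2 fold change of -7.55 became -10.02, which is no bound since the Ret-EGFP+ group was then at 0, with an adjusted p of 0.0935. Without the libraries of plate 4, which are Ret-EGFP+ library 5 and non-EGFP library 5, the adjusted p was 0.167.

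*Notch1*, the other receptor with a known part in crypt stem cells, was at 1.92 to 4.12 CPM in Ret-EGFP+ against 4.71 to 14.8 CPM in non-EGFP libraries. These ranges did not overlap, but its log2 fold change of -1.34, with a standard error (SE) of 0.68, missed the threshold with edgeR (adjusted p = 0.130) and passed it with DESeq2 (adjusted p = 0.0783). *Notch4*, best known from endothelium, was at 0 to 10.1 CPM in Ret-EGFP+ against 0 to 11.4 CPM in non-EGFP libraries, a log2 fold change of 0.10 (SE 1.24).

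The ligands differed in opposite directions. *Dll4* (chr2:119325784-119335962, + strand) was at 15.9, 9.36, 8.63, 5.30 and 12.6 CPM in Ret-EGFP+ libraries, against 1.64, 2.18, 2.94, 0 and 0 CPM in non-EGFP libraries. Every Ret-EGFP+ library was above every non-EGFP library, and the log2 fold change was 2.85 (SE 0.82, adjusted p = 0.00794), a 7.22-fold higher level. *Jag2* (chr12:112907819-112929776, - strand) had 4, 0, 1, 5 and 13 counts in Ret-EGFP+ libraries, against 0 in all 5 non-EGFP libraries. With a floor of 3 counts over the non-EGFP group this was 8.47-fold higher (adjusted p = 0.0284). That figure leaves out the spread among Ret-EGFP+ libraries and is no lower bound. The approximate 95% interval of the fit was 3.13 to 387-fold. Ret-EGFP+ library 2 also had 0, and without plate 4 the adjusted p was 0.115. *Jag1* (chr2:137081456-137116644, - strand) had 1, 0, 0, 1 and 1 counts in Ret-EGFP+ libraries, against 48, 2, 3, 8 and 36 in non-EGFP libraries, or 0 to 0.589 CPM against 11.3, 0.728, 1.76, 9.10 and 10.2 CPM. The ranges did not overlap, and libraries 1, 4 and 5 of the non-EGFP cells were again the highest. The ratio of non-EGFP over Ret-EGFP+ was 29.3 (exact 95% counting interval 9.73 to 144, adjusted p = 0.00269). With the spread between libraries included, the fitted log2 fold change was -4.48 (approximate 95% interval -6.69 to -2.27). *Dll1*, a ligand of secretory progenitors, was at 6.03 to 14.7 CPM in Ret-EGFP+ against 10.5 to 22.7 CPM in non-EGFP libraries and did not pass (log2 fold change -0.77, SE 0.46, adjusted p = 0.201).

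Fringe enzymes lengthen the O-linked fucose that POFUT1 places on Notch receptors and so tune which ligand a receptor answers. *Mfng* (chr15:78755882-78773475, - strand) had 7, 4, 15, 0 and 30 counts in Ret-EGFP+ libraries, against 0, 1, 0, 0 and 1 in non-EGFP libraries. It was absent from Ret-EGFP+ library 4, so the groups overlapped. The ratio of Ret-EGFP+ over non-EGFP was 30.9 (exact 95% counting interval 8.17 to 262, adjusted p = 0.0126). With the spread between libraries included, the fitted log2 fold change was 4.39 (approximate 95% interval 1.76 to 7.02). *Lfng*, *Rfng* and *Pofut1* did not pass. Their mean levels were 1.60, 3.97 and 3.70 CPM in Ret-EGFP+ cells, against 0.986, 3.86 and 1.82 CPM in non-EGFP cells, with log2 fold changes of 0.67, -0.04 and 0.95 and SEs of 1.34, 0.85 and 1.07.

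Of the proteases, *Adam10* was lower and 2 gamma-secretase genes were higher. *Adam10* (chr9:70678997-70780229, + strand), which makes the first cut after ligand binding, was at 28.1, 21.4, 35.002, 23.0 and 27.1 CPM in Ret-EGFP+ libraries, against 188, 29.9, 32.4, 125 and 105 CPM in non-EGFP libraries. The log2 fold change was -1.83 (SE 0.41, adjusted p = 0.00193), yet non-EGFP libraries 2 and 3 lay within the Ret-EGFP+ range and only libraries 1, 4 and 5 were above it. *Psen2* (chr1:180227004-180263438, - strand), a catalytic presenilin of gamma-secretase, was at 50.8, 59.5, 41.7, 29.5 and 31.0 CPM in Ret-EGFP+ libraries, against 12.7, 7.28, 11.8, 28.4 and 9.90 CPM in non-EGFP libraries. The groups did not overlap, with non-EGFP library 4 close to the lowest Ret-EGFP+ library, and the log2 fold change was 1.67 (SE 0.38, adjusted p = 0.000950). *Ncstn* (chr1:172066013-172082795, - strand), the nicastrin subunit that receives the substrate, was at 20.7, 39.4, 22.1, 25.9 and 29.9 CPM in Ret-EGFP+ libraries, against 14.1, 14.2, 7.65, 17.1 and 13.9 CPM in non-EGFP libraries. Again no library overlapped, and the log2 fold change was 1.04 (SE 0.38, adjusted p = 0.0335).

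The 2 other subunits did not pass with TMM scaling. *Psenen* averaged 49.3 ± 7.37 CPM in Ret-EGFP+ against 37.01 ± 7.56 CPM in non-EGFP cells (SD, n = 5 each), with a fitted log2 difference of 0.42 (SE 0.27, adjusted p = 0.250), and it passed with total counts alone (adjusted p = 0.00716). *Aph1a* averaged 7.33 ± 4.65 and 7.12 ± 3.25 CPM in Ret-EGFP+ and non-EGFP cells. *Adam17*, a second sheddase, averaged 4.62 ± 3.87 and 4.00 ± 2.80 CPM in Ret-EGFP+ and non-EGFP cells, and its last exon shares 311 bases with *Iah1* on the other strand. *Ncstn* shares 195 bases, outside its last exon, with *Copa*. Whether the counting used the strand is not given in the sources used here.

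The nuclear complex differed in a single member. *Maml3* (chr3:51685907-52105076, - strand) was at 54.2, 54.8, 47.9, 63.6 and 46.3 CPM in Ret-EGFP+ libraries, against 4.93, 8.01, 8.82, 9.10 and 6.22 CPM in non-EGFP libraries. The groups lay far apart with little spread in either, and the log2 fold change was 2.88 (SE 0.34, adjusted p = 8.27e-08), a 7.38-fold higher level. Its paralogs *Maml1* (3.43 ± 2.55 CPM in Ret-EGFP+ against 2.68 ± 2.63 CPM in non-EGFP cells) and *Maml2* (1.62 ± 1.21 and 0.697 ± 1.05 CPM) did not pass, with SEs of 0.96 and 1.46 on the log2 scale. *Rbpj* averaged 3.16 ± 1.25 CPM in Ret-EGFP+ against 4.75 ± 1.56 CPM in non-EGFP cells, with a fitted log2 difference of -0.58 (SE 0.78, adjusted p = 0.610).

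*Hes1* (chr16:30064384-30067796, + strand), the transcriptional repressor through which Notch restrains *Atoh1*, had the smallest p of the members. It was at 25.1, 24.7, 34.5, 14.1 and 33.1 CPM in Ret-EGFP+ libraries, against 255, 350, 277, 296 and 501 CPM in non-EGFP libraries. Each Ret-EGFP+ library was below every non-EGFP library, and the log2 fold change was -3.66 (SE 0.25, adjusted p = 1.78e-12), a 12.6-fold lower level. Over the 22 alternatives to the main settings it ranged between -3.77 and -3.12. *Nrarp* (chr2:25180758-25183339, + strand), a Notch target whose product dampens the receptor's intracellular domain, had 0, 1, 1, 6 and 6 counts in Ret-EGFP+ libraries, against 40, 6, 9, 11 and 10 in non-EGFP libraries. In CPM these are 0 to 3.53 against 2.18 to 12.5, so the groups overlapped, and the log2 fold change was -2.31 (SE 0.98, adjusted p = 0.0683). This call depended on single libraries: leaving out any of Ret-EGFP+ libraries 1 to 3, or of non-EGFP libraries 1 and 4, ended it, with adjusted p values up to 0.188, as did scaling by total counts alone (0.155) and a plate term (0.112), and the fold moved to -3.04 without Ret-EGFP+ library 4. The transcript *Gm38287* overlaps 2051 bases of its last exon on the other strand and had 11 counts in the sorted libraries.

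Neither of the HES relatives that could be tested passed. *Hes6*, which opposes HES1 in the nervous system, was at 155, 80.2, 152, 132 and 142 CPM in Ret-EGFP+ libraries, against 173, 101, 95.9, 89.8 and 171 CPM in non-EGFP libraries. The ranges largely coincided, and the log2 fold change was 0.06 (approximate 95% interval -0.39 to 0.51, adjusted p = 0.874). With total counts alone it was 0.59 (adjusted p = 0.0668). *Hes7*, known from the segmentation clock of the embryo, had 10 counts in 2 of the Ret-EGFP+ libraries and 1 in the non-EGFP libraries and did not pass (adjusted p = 0.182).

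RBPJ binds DNA at the letters GTGGGAA. These, on either strand (GTGGGAA or TTCCCAC), were searched in the RefSeq promoters of GRCm38.p6, 250 bases before to 50 after each start, which hold 30 of the 35 genes. *Hes1*, *Hey1*, *Heyl*, *Mfng* and *Dtx4* were not searched. The letters stood in a promoter of 6 of the 30 genes (*Lfng*, *Hes5*, *Hes7*, *Hey2*, *Psen2* and *Aph1a*), and in 6.38% of all 32851 promoters. Some genes have more than 1 promoter, so a share of genes and a share of promoters are not like for like. Windows of 30 bases around them, on the strand of each gene with the matched letters in capitals, are shown for the target genes that were at or near 0 here and for the gamma-secretase gene that was higher:
*Hes5* (chr4:154960829-154960858, + strand): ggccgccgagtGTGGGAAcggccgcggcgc
*Hes5* (chr4:154960686-154960715, + strand): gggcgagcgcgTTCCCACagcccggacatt
*Hes7* (chr11:69120262-69120291, + strand): cctcccctcacTTCCCACatttggggctag
*Hey2* (chr10:30842769-30842798, - strand): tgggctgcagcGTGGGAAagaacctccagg
*Hey2* (chr10:30842972-30843001, - strand): gcgcggtggcaTTCCCACgcctctgccaac
*Psen2* (chr1:180246021-180246050, - strand): gcacaggagacTTCCCACagatgtttatcg
A match describes letters only. The paired matches of *Hes5* lie 83 and 226 bases before its start and those of *Hey2* 4 and 207 bases before its start. Both genes were at 0 counts in the sorted libraries. *Psen2* was higher in Ret-EGFP+ cells and has a match 89 bases before 1 of its 2 starts, in a window inside the gene. *Lfng* and *Aph1a*, whose windows are not shown, have matches 109 and 4 bases before a start. They did not pass in sorted cells (log2 fold changes 0.67 and 0.08).

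The modulators did not pass. *Numb*, an inhibitor of Notch receptors, averaged 20.7 ± 4.23 CPM in Ret-EGFP+ against 24.4 ± 12.1 CPM in non-EGFP cells (log2 fold change -0.22, approximate 95% interval -0.99 to 0.55). The Deltex ubiquitin ligases *Dtx2* and *Dtx4* had 25 and 22 counts in Ret-EGFP+ and 9 and 20 in non-EGFP libraries. All 9 non-EGFP counts of *Dtx2* came from library 2, without which *Dtx2* passed the test as higher in Ret-EGFP+ cells (adjusted p = 0.0363).

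**Figure D2:**
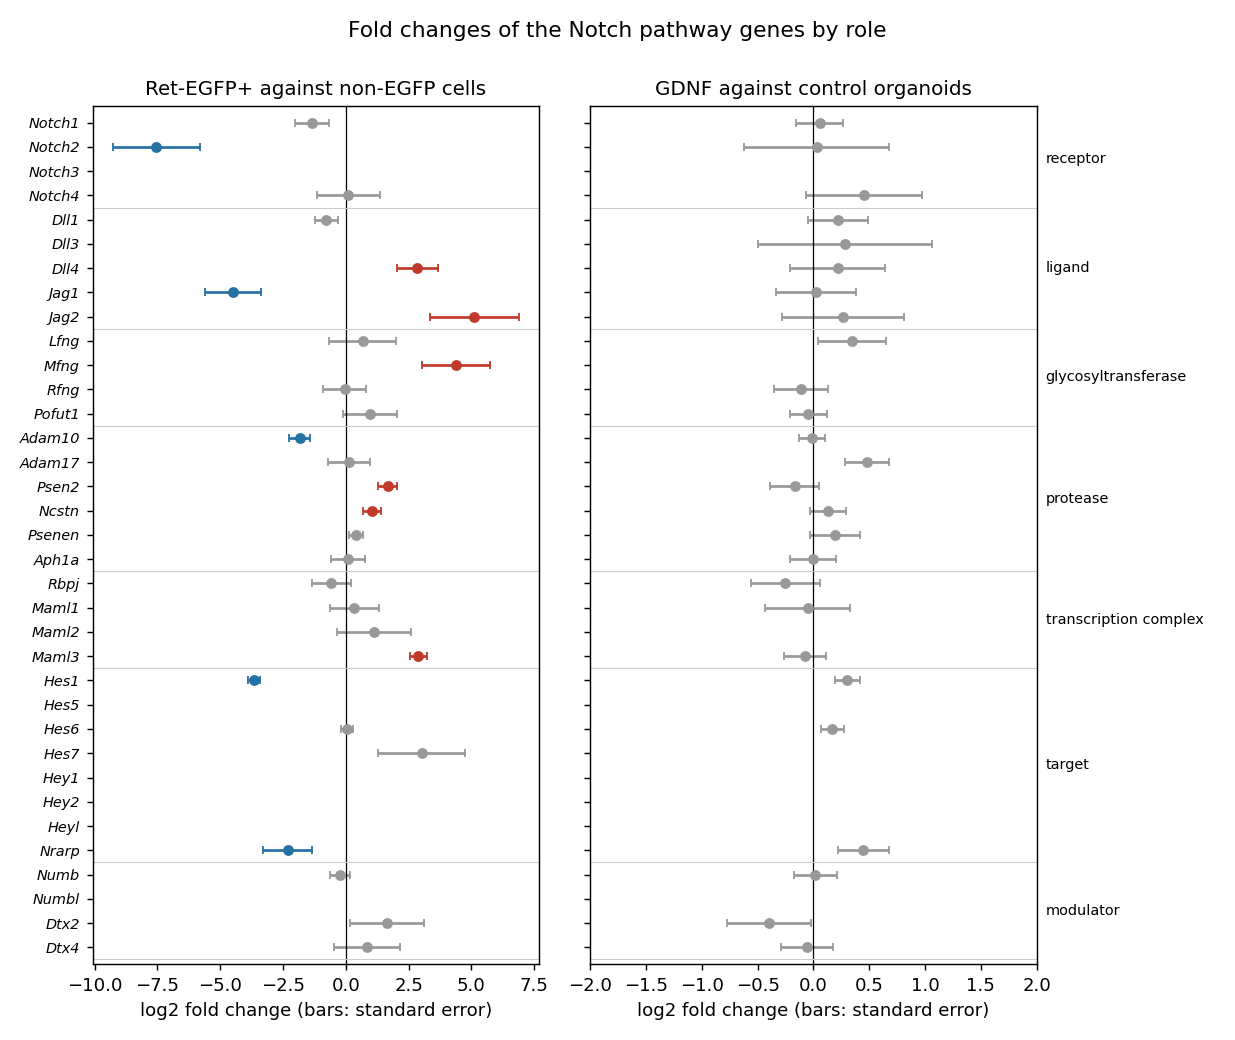
Log2 fold changes of the Notch pathway genes that were tested, ordered by role, for Ret-EGFP+ against non-EGFP cells (left) and GDNF against control organoids (right, on a narrower axis). Points are edgeR estimates and bars standard errors, red and blue mark genes that passed as higher and lower, grey those that did not, and genes without a point were not tested. The sorted cells span -7.55 to 5.12 and the organoids -0.40 to 0.48.

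Markers of other epithelial classes and of immune cells differed beside the lower members. All 7 stem cell markers (summed level 28.9 to 88.5 CPM in Ret-EGFP+ against 607 to 1038 CPM in non-EGFP libraries), 7 of 7 proliferation markers (14.4 to 30.1 against 447 to 599 CPM), 6 of 6 Paneth markers (2931 to 7208 against 172915 to 440340 CPM), 7 of 7 goblet markers (9461 to 10863 against 15059 to 35598 CPM) and 7 of 7 tuft markers (3.36 to 10.96 against 364 to 1146 CPM) were lower in Ret-EGFP+ cells. *Ascl2*, *Pou2f3* and *Gfi1b* were at 0 counts there. Of 7 lymphocyte markers, 5 were lower and *Il7r* was higher (summed 1.37 to 34.8 CPM in Ret-EGFP+ against 70.5 to 316 CPM in non-EGFP libraries), with *Cd8a* at 0 in Ret-EGFP+ cells. Of 8 enterocyte markers, the absorptive class, 4 were lower and 2 higher (summed 1708 to 2783 CPM in Ret-EGFP+ against 7273 to 17261 CPM in non-EGFP libraries), and of 4 tested myeloid markers 2 were lower and 1 higher (2.01 to 6.10 against 2.26 to 81.6 CPM, the highest in non-EGFP library 2). The part of these cell types in the differences of *Hes1*, *Notch2*, *Jag1*, *Nrarp* and *Adam10* was not tested. Lymphocyte marker sums in non-EGFP libraries 1 to 5 were 316, 109, 124, 70.5 and 81.1 CPM. Glial and neuronal markers summed to 7.66 to 21.9 CPM in Ret-EGFP+ against 0 to 7.65 CPM in non-EGFP libraries. Of 3 tested, 1 passed, as higher. The part of such cells in the higher members was not tested. Endothelial markers, of interest because *Dll4*, *Jag1* and *Notch4* are vascular genes too, summed to 5.89 to 11.4 CPM in Ret-EGFP+ against 0 to 21.2 CPM in non-EGFP libraries with 0 of 3 tested markers passing, and *Cdh5*, *Kdr* and *Emcn* were at 0 counts in all 10 libraries.

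Other genes of the pathway, 44 of them in the table and 38 tested, gave 11 higher and 3 lower genes in Ret-EGFP+ cells, or 36.8% called where 42.9% of all genes were. The median log2 fold change was 0.83, beside 0.10 over all genes. *Dner*, a transmembrane protein with EGF-like repeats described as a Notch ligand in the cerebellum, was at 80.9 ± 12.3 CPM in Ret-EGFP+ against 0.570 ± 0.753 CPM in non-EGFP cells (SD, n = 5 each), with a fitted log2 difference of 7.09 (SE 0.48, adjusted p = 1.87e-12). The Groucho-type corepressors moved apart, with *Tle1* higher by a log2 fold change of 1.76 (44.6 ± 13.3 CPM in Ret-EGFP+ against 13.1 ± 4.54 CPM in non-EGFP cells) and *Tle4* at -2.92 (7.11 ± 4.84 and 53.8 ± 21.7 CPM). The acetyltransferase *Crebbp*, the Mediator kinase *Cdk8*, the ubiquitin ligase *Nedd4* and the corepressor *Spen* were higher by 1.11, 1.97, 0.80 and 1.15, and the nuclear cofactor *Snw1* was lower with -0.57.

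Of 15 genes through which Notch is tied to intestinal cell fate, 14 were tested, 9 were lower and 2 higher. That is 78.6% called, beside 42.9% of all genes (21.4% lower), with a median log2 fold change of -2.16, beside 0.10 over all genes. *Lgr5*, *Olfm4*, *Ascl2* and *Spdef* are also among the stem cell and goblet markers above. The list was chosen with earlier results of these data known, so this share is no separate evidence about Notch. *Ascl2*, a stem cell transcription factor, had 0 counts in Ret-EGFP+ libraries against 513 in non-EGFP libraries. With a floor of 3 counts over the Ret-EGFP+ group this was 155-fold lower. *Olfm4* and *Lgr5*, further stem cell genes, had log2 fold changes of -5.20 and -2.24. *Atoh1*, the secretory determinant that HES1 represses, was itself at 0.547 ± 1.04 CPM in Ret-EGFP+ against 30.6 ± 5.14 CPM in non-EGFP cells (adjusted p = 1.39e-07, log2 fold change -5.74, SE 0.69). Both *Hes1* and *Atoh1* were thus lower in the sorted Ret-EGFP+ cells. *Spdef*, a goblet and Paneth cell factor, *Ccnd1*, a cyclin, and *Sox9*, a crypt base factor, were lower with -4.60, -4.44 and -2.92. In non-EGFP libraries 1 to 5, *Ccnd1* was at 171, 53.2, 52.4, 217 and 109 CPM and *Sox9* at 163, 33.5, 55.9, 138 and 103 CPM. Libraries 1, 4 and 5 were thus the highest for both, as for *Notch2*, *Jag1* and *Adam10*. The cell cycle inhibitor *Cdkn1c*, which HES1 represses in other tissues, was higher at 302 ± 76.3 CPM in Ret-EGFP+ against 23.1 ± 12.7 CPM in non-EGFP cells (log2 fold change 3.70, SE 0.35, adjusted p = 7.41e-08). The enteroendocrine progenitor factor *Neurog3*, named after its value was seen, was at 11.1 ± 5.596 CPM in Ret-EGFP+ against 8.34 ± 7.25 CPM in non-EGFP cells and did not pass (adjusted p = 0.616).

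**Figure D3:**
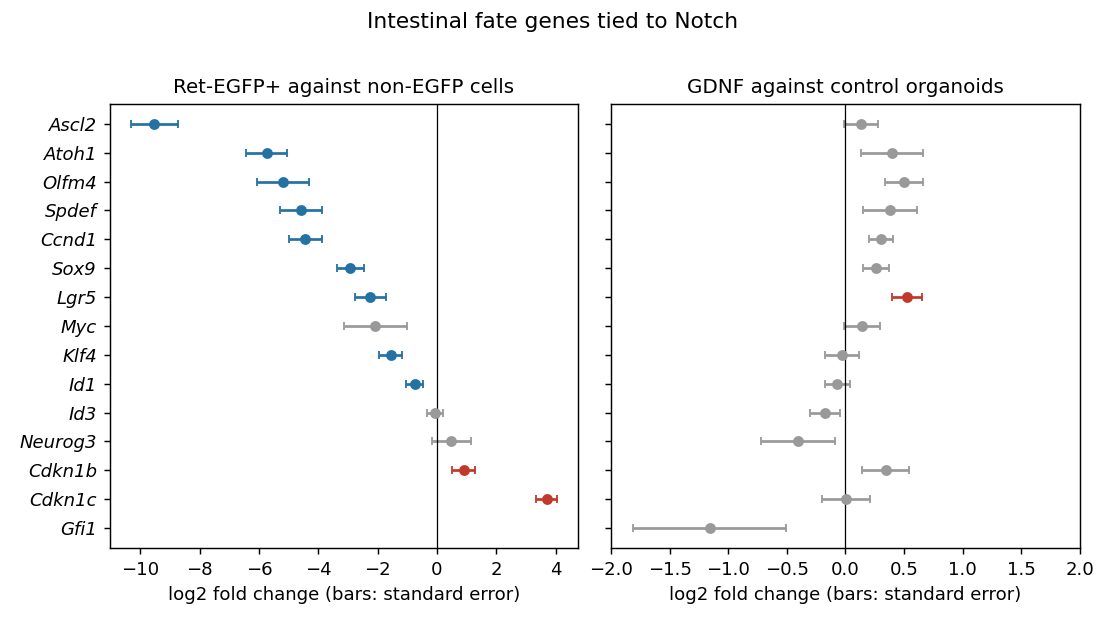
Log2 fold changes of 15 intestinal fate genes tied to Notch, for Ret-EGFP+ against non-EGFP cells (left) and GDNF against control organoids (right, on a narrower axis). Points are edgeR estimates, bars standard errors, red and blue mark genes that passed as higher and lower, and grey those that did not, while *Gfi1* was not tested in sorted cells. *Ascl2* and *Atoh1* are the lowest in sorted cells, and *Lgr5* alone passed in organoids.

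The second comparison asked what GDNF did to the pathway in organoids. No Notch pathway gene passed: 0 of 26 tested members had an adjusted p under 0.1, where 0.663% of all 12220 genes did (0.532% higher and 0.131% lower). DESeq2 also gave 0. At an unadjusted p of 0.05 there were 2 members, *Hes1* and *Adam17*, beside 6.93% of all genes. The largest fold changes were small, from -0.40 for *Dtx2* to 0.48 for *Adam17* on the log2 scale, with a median of 0.04 over the members and 0.01 over all genes. For 20 of the 26 members the approximate 95% interval (normal approximation) lay within a log2 fold change of 1 in either direction, and for 6 it was wider. *Hey2* and *Heyl* had 0 counts in all 12 libraries. *Notch3*, *Mfng*, *Hes5*, *Hes7*, *Hey1* and *Numbl* had 1 to 12 counts over all libraries and were not tested. *Maml2*, also not tested, had 9 counts in GDNF and 0 in control libraries, 3 in a single GDNF library of each experiment.

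*Hes1* was at 52.4 and 43.5 CPM in the GDNF libraries of experiment 1, against 53.9 and 39.99 CPM in its control libraries. In experiment 2 it was at 121 and 118 CPM with GDNF, against 106 and 93.4 CPM in controls. In experiment 3 both GDNF libraries were at 132 CPM, against 87.9 and 96.97 CPM in controls. The GDNF libraries were thus above the controls in experiments 2 and 3 and mixed with them in experiment 1, where the level of *Hes1* was lower in either treatment. The log2 fold change was 0.30 (SE 0.11), a 1.24-fold level, with an unadjusted p of 0.00809 and an adjusted p of 0.415. It was positive under all 26 alternatives, from 0.16 to 0.38, and the smallest adjusted p among them was 0.155. Without experiment 1 it was 0.38 (adjusted p = 0.220), and without experiment 3 it was 0.16 (adjusted p = 0.936).

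*Nrarp* was at 11.6 and 16.04, 20.3 and 14.1, and 14.9 and 16.4 CPM in the GDNF libraries of experiments 1 to 3, against 8.66 and 7.59, 13.3 and 17.5, and 14.2 and 8.63 CPM in controls. Both GDNF libraries were above the controls in experiments 1 and 3 but not in experiment 2, and the log2 fold change of 0.45 (SE 0.23, adjusted p = 0.739) did not pass. *Adam17* averaged 22.8 ± 5.10 CPM with GDNF and 16.2 ± 5.00 CPM in controls (SD, n = 6 each), a log2 fold change of 0.48 (SE 0.20, unadjusted p = 0.0182, adjusted p = 0.562). Without experiment 1, *Nrarp* and *Adam17* had log2 fold changes of 0.29 and 0.28. *Iah1*, which overlaps the last exon of *Adam17* on the other strand, had 3928 counts over the organoid libraries, where *Adam17* had 230 with GDNF and 140 in controls. *Jag2* and *Lfng* were, with *Hes1*, *Nrarp* and *Adam17*, the 5 of the 26 tested members whose mean was higher with GDNF in each of the 3 experiments, and no tested member was lower in all 3. The untested *Maml2* was also higher in each, with the 9 counts given above. The share of all genes with this pattern was not computed, so no trend is read from the count of 5. Some of these differences were close to 0 on the log2(CPM + 1) scale: 0.01 for *Lfng* in experiment 3 and 0.04 for *Hes1* in experiment 1.

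**Figure D4:**
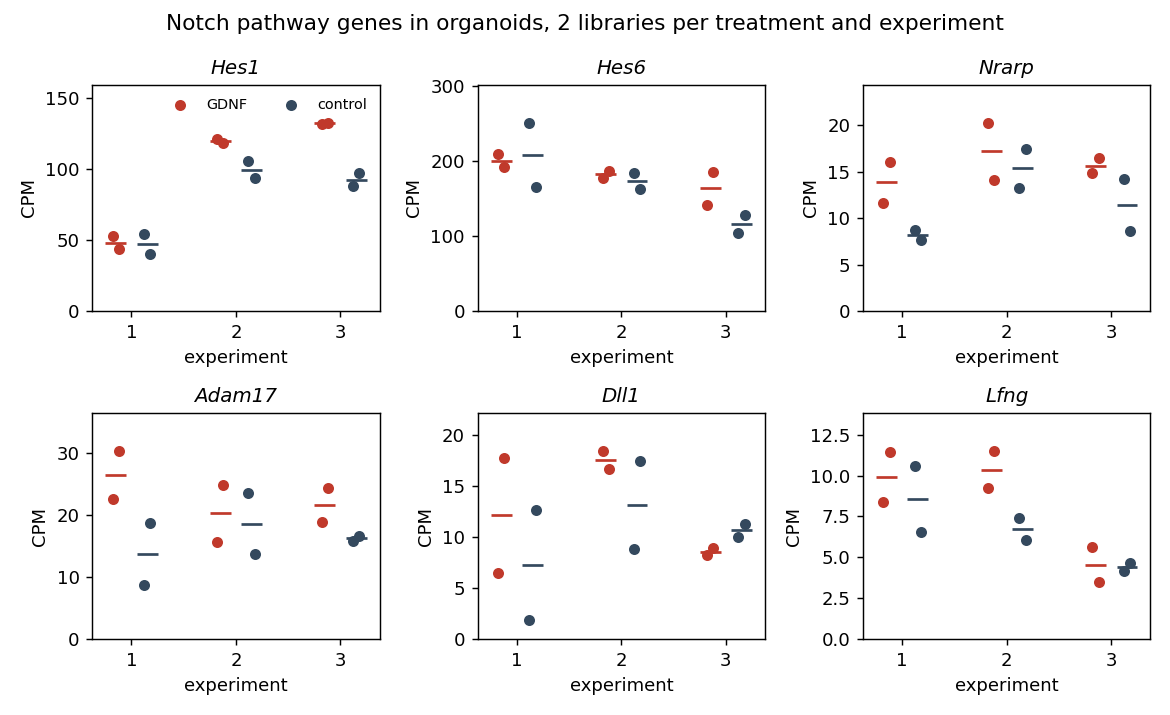
Levels of 6 Notch pathway genes in organoids by experiment, in CPM on axes that start at 0. Points are libraries (GDNF in red on the left, control in dark blue on the right, 2 each), and lines are means of 2 libraries. *Hes1* is at 39.99 to 53.9 CPM in experiment 1 and at 87.9 to 132 CPM in experiments 2 and 3.

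The remaining receptors and ligands did not pass either. *Notch1* was at 7.97 to 24.6 CPM with GDNF and 7.31 to 25.05 CPM in controls, and its lowest values in both treatments were those of experiment 3. Its log2 fold change was 0.06 (approximate 95% interval -0.36 to 0.47). *Notch2*, at 2.18 ± 1.99 CPM with GDNF and 2.03 ± 1.73 CPM in controls, and *Notch4*, at 3.19 ± 1.32 and 2.31 ± 1.78 CPM, rested on few counts. *Dll1*, *Dll4* and *Jag1* averaged 12.7, 4.05 and 5.51 CPM with GDNF and 10.4, 3.64 and 5.42 CPM in controls. *Dll3*, an atypical ligand without receptor-activating ability, had 11 counts with GDNF and 8 in controls.

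Of the processing genes, *Adam10* had the narrowest interval, at 77.4 ± 12.5 CPM with GDNF and 78.2 ± 12.1 CPM in controls (log2 fold change -0.01, -0.24 to 0.22). *Ncstn*, *Psenen*, *Psen2* and *Aph1a* had log2 fold changes of 0.13, 0.19, -0.17 and -0.01. *Lfng*, *Rfng* and *Pofut1* had 0.34, -0.11 and -0.05. In the nuclear complex *Rbpj*, *Maml1* and *Maml3* had -0.25, -0.05 and -0.08, and among the modulators *Numb* and *Dtx4* had 0.02 and -0.06. *Hes6* was at 142 to 209 CPM with GDNF and 104 to 251 CPM in controls, a log2 fold change of 0.17 (SE 0.10, adjusted p = 0.812).

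Whether the GDNF effect differed between experiments was tested as an interaction. None of the 26 members passed, where 0.00818% of all genes (1 gene) did, and 0 members had an unadjusted p under 0.05, beside 4.98% of all genes. The smallest p, 0.0775, was that of *Hes6* (adjusted p = 0.990), whose GDNF minus control difference on the log2(CPM + 1) scale was -0.03, 0.08 and 0.49 in experiments 1 to 3. With 2 libraries per treatment and experiment, differences between experiments of the size seen for *Hes1* (0.04, 0.26 and 0.51) did not pass.

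Of the other genes of the pathway, 36 were tested in organoids and 0 passed (2 at an unadjusted p of 0.05, and a median log2 fold change of 0.05). Of the 15 fate genes, 1 passed: *Lgr5*, a Wnt-responsive stem cell receptor, at 71.7 ± 34.3 CPM with GDNF and 50.5 ± 28.1 CPM in controls, with a log2 fold change of 0.53 (SE 0.13, adjusted p = 0.0201). How this call depends on single experiments was not examined. *Atoh1* and *Neurog3*, named after their values were seen, had log2 fold changes of 0.40 and -0.41 (adjusted p = 0.847 and 0.901). Markers that passed as higher were 4 of 7 for goblet cells (summed level 3514 to 4688 CPM with GDNF and 2626 to 4260 CPM in controls), 3 of 6 for Paneth cells (25219 to 44328 and 21776 to 36224 CPM) and 2 of 7 for stem cells (1370 to 2720 and 864 to 2910 CPM). *Lgr5* is among these stem cell markers. Over all genes 0.532% passed as higher. None of the 9 tested enteroendocrine markers passed (summed level 670 to 797 CPM with GDNF and 559 to 778 CPM in controls), nor any of 8 enterocyte, 7 proliferation or 4 tuft markers. The enteroendocrine list did not hold *Tac1*, *Tph1*, *Pyy* or *Cck*. The study reported these genes as higher in its GDNF-treated organoids, with an enriched enteroendocrine signature. The part of these cell types in the values of the Notch pathway genes was not tested.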

How the data were processed

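Gene counts were used as the authors deposited them, 1 table for 10 libraries of sorted cells and 1 for 12 libraries of organoids. Per the labels and the methods, BRB-seq reads were aligned to the mouse genome (GRCm38) with STAR 2.7.8a and counted per gene with BRB-seqTools from unique molecular identifiers (UMIs) of 8 bases. As 32 values of the sorted table exceeded the 65536 UMIs that 8 bases allow, its counts may not all be distinct molecules. The exact counting intervals and the limits for 0 counts treat each count as independent. They cover counting error only and may be too narrow even for that. A reporter row without a gene identifier was left out (0 sorted and 10 organoid counts). No aligned reads were used here, and whether counting used the strand is not given in the sources used here. Gene positions and exon overlaps came from GENCODE annotation of GRCm38, promoters from RefSeq (GRCm38.p6).

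Genes entered the test from 5 counts in total and a mean of 1 after normalization. They were tested in R 4.3.3 with edgeR 4.0.16 (TMM, robust quasi-likelihood fit), with group as the term for sorted cells and experiment plus treatment for organoids. The interaction of experiment and treatment was tested over both of its terms. The Benjamini-Hochberg adjustment ran over all genes tested, and every adjusted p is from edgeR unless DESeq2 1.42.0 is named. A fold against a group at 0 used a floor of 3 counts over the group. Per-experiment differences are of log2(CPM + 1). The test was tried on simulated data first. Alternatives were DESeq2, other scalings, filters and thresholds, plate and pool terms, and leaving out libraries, plates or experiments.

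Every Notch pathway gene is accounted for, and those called have the value of each library given. Of the other lists, called genes are named, at most 8 per list and comparison by unadjusted p. The members and all lists were chosen with earlier results of these data known.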

Additional observations from a re-analysis of the deposited data

Results flagged for a closer look

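A sample stood apart from the others of its group, by Dixon's test on log2(CPM + 1), in 6 of the 65 gene and group combinations examined. Chance gives about 1 in 20. Values below are in CPM, on which scale the gaps look smaller. The organoid groups pooled the 3 experiments, which can differ in level. In Ret-EGFP+ cells, *Hes6* was lowest in library 2 at 80.2 CPM, where the next library had 132 and the highest 155 CPM. Among non-EGFP libraries, *Ncstn* was lowest in library 3 at 7.65 CPM (next 13.9, highest 17.1 CPM), and *Psenen* was lowest in library 1 at 24.0 CPM (next 37.5, highest 42.98 CPM). In organoids, *Numb* was highest in GDNF experiment 1 library 2 at 34.4 CPM (next 21.1, lowest 15.9 CPM). *Numb* was also lowest in control experiment 3 library 2 at 8.63 CPM (next 18.4, highest 28.1 CPM). *Dll1* was lowest in control experiment 1 library 1 at 1.93 CPM (next 8.86, highest 17.5 CPM). By the interaction test, a difference between experiments in the GDNF effect was detected for none of the tested Notch pathway genes. With 2 libraries per treatment and experiment, this does not show that the effects were equal.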

How the results depend on the processing

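In sorted cells the 11 called members became 6 with edgeR's filterByExpr filter, which leaves 13 members to test and drops *Notch2*, *Jag1*, *Jag2*, *Mfng* and *Nrarp*. The other alternatives gave 9 to 12 called members, and leaving out each library in turn gave 10 to 12. *Hes1*, *Adam10*, *Dll4*, *Maml3*, *Psen2* and *Ncstn* were called under every alternative run, as were *Jag1* and *Mfng* wherever they were tested, and no call changed direction. *Dll3* was called as lower only with no filter (adjusted p = 0.0748). In organoids 0 members were called under each of 26 alternatives, and the interaction gave 0 under each of its alternatives. Without the replicate block (the experiment term) the organoid count was 0 as well, while over all genes it fell to 5 called, against 81 with it. For sorted cells, no paired analysis was possible because the mouse of each library is not given. Depth limited the rarest members: 8 of the 28 tested in sorted cells had under 50 counts in both groups, and 3 of the 28 intervals lay within a log2 fold change of 1 in either direction. The non-EGFP libraries 2 and 3 were left out together, as a choice made after seeing the data, which gave 12 called members.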
